A study of Arabidopsis thaliana with 18 samples.

Results

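Roots of Arabidopsis thaliana exposed to lanthanum (La) were compared with unexposed roots over all genes that had a value of at least 1 in 3 or more of the 9 root libraries. These were 22729 of the 28991 genes in the root table, and 6 of the 18 libraries of the series made up the comparison. All plants were wild type of the Col-0 accession, 6 weeks old and grown in hydroponic medium. The La group received 5 µM LaCl3 for 72 h, the control group received no rare earth, and another group of roots received 5 µM ytterbium (Yb) chloride for the same time. During those 72 h the medium of all 3 groups, controls included, held no phosphate, so every difference is one between roots without phosphate supply. Each group held 3 replicates of 3 pooled plants, and separate containers for the replicates are not recorded in the labels, so the p-values measure the spread between these samples, which may be technical. Values are read counts per gene divided by the size factor of the library, not by gene length, and levels are therefore compared between libraries and not between genes. At the limit of the filter, 377 genes reached a value of 1 in exactly 3 libraries and 564 in exactly 2.

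La and Yb are lanthanides, at the light and at the heavy end of that series of metals. The La ion resembles calcium in size, and it is used in physiology as a blocker of calcium channels. In the root, hairs are outgrowths of epidermal cells that extend at their tip with wall proteins, reactive oxygen and a calcium gradient, while aquaporins of the plasma membrane and vacuole carry water across cells. NAC and WRKY proteins are plant transcription factor families with many members that act in stress and senescence.

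The 9 libraries held 12.8 to 16.22 M reads counted to genes, and shares of reads below refer to these. On the first principal component of the log2 values (45.3% of the variance), the controls lay at -66.1 to -55.5, La 1, La 2 and La 3 at 58.8, 93.7 and 63.2, and Yb 1, Yb 2 and Yb 3 at 9.2, 9.9 and -50.8. Mitochondrial transcripts made up 0.065% and 0.0549% of the reads of controls 1 and 3, against 0.00948% or less in control 2 and the La libraries. Chloroplast transcripts made up 0.0498% and 0.0445% of the reads of controls 1 and 3, against 0.00601% or less in control 2 and the La libraries. In these genomes 5 chloroplast genes and 1 mitochondrial gene fell. The part of the split among the controls in those falls was not tested.

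Of the genes tested, 4300 (18.9%) passed an adjusted p of 0.05 in limma, 2139 upwards (9.41%) and 2161 downwards (9.51%). The median log2 difference over all genes tested was 0.00. The falls were the larger changes, with a median log2 difference of -0.99 against 0.71 for the rises. At least a doubling was seen in 725 genes and at least a halving in 1072. A change of 16-fold or more was seen in 26 genes that rose and 172 that fell, while 833 rises and 685 falls were under 1.5-fold. The 2 groups did not overlap in 4278 of the 4300 genes, and in 37.5% of all genes tested. Without La 2 the number of calls was 2588, and without control 3 it was 2694.

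**Figure D1:**
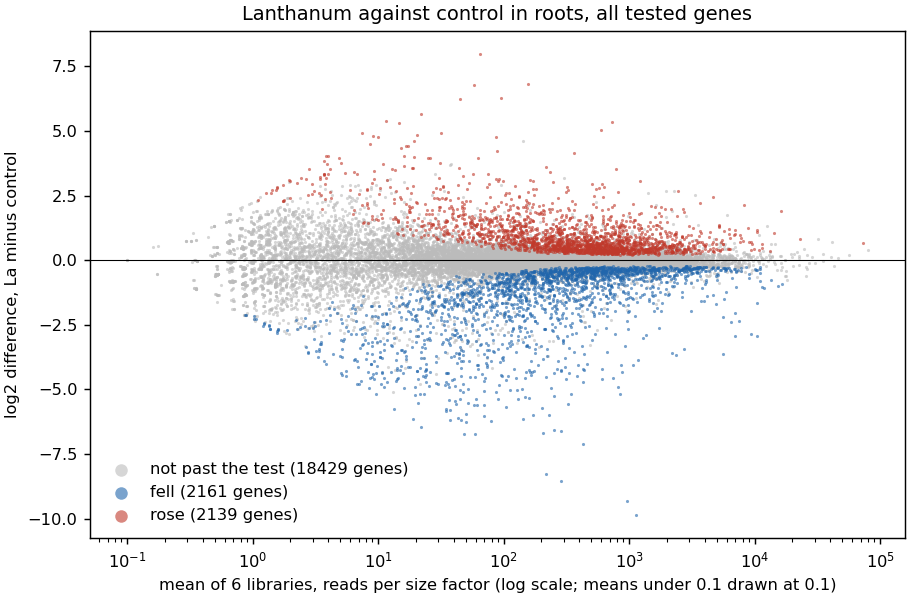
Log2 difference (La minus control) of each of the 22729 tested genes against its mean over the 6 compared libraries in reads per size factor, on a log axis. Red points rose (2139), blue points fell (2161) and grey points did not pass the test, and the blue points reach farther from 0 than the red ones.

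By share of reads, the genes that rose held 9.44% to 9.66% of the reads of the control libraries and 14.7% to 16.4% of those of the La libraries. The genes that fell held 13.9% to 14.2% of control reads and 7.88% to 8.64% of La reads. These shares describe genes chosen by the same comparison. Genes with a mean between 10 and 100 held 342 rises with a median log2 difference of 1.44 and 529 falls with a median of -2.02. Among genes with a mean of 1000 to 10000, the medians were 0.55 for 420 rises and -0.42 for 367 falls.

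The rise with the smallest adjusted p was that of CHX18 (AT5G41610), a cation/proton exchanger. Its values were 96.5, 94.6 and 88.4 in controls 1 to 3 and 299.6, 346.8 and 325.4 in La 1 to 3, a log2 difference of 1.79 ± 0.10 (SE, adjusted p = 0.000115). Every La library lay above every control, and the La level was also above that of the Yb roots, by 0.81 ± 0.10 (adjusted p = 0.00794). Here and below, La against Yb calls of single genes were not checked by leaving out libraries.

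NIT2 (AT3G44300), a nitrilase, had 125.3, 162.3 and 157.2 in the controls and 558.0, 641.3 and 529.9 with La, a rise of 1.96 ± 0.16 (adjusted p = 0.000309). Rap2.6L (AT5G13330), a transcription factor of the ERF family, had 99.8, 95.6 and 100.7 in the controls and 425.1, 422.8 and 324.5 with La (1.97 ± 0.13, adjusted p = 0.000237). The groups of both genes were far apart, and neither gene differed from the Yb roots past the test (adjusted p = 0.0691 and 0.122). NAP (AT1G69490), a NAC factor of leaf senescence, had 138.7, 95.6 and 152.1 in the controls and 518.0, 565.2 and 467.5 with La, a rise of 2.02 ± 0.16 (adjusted p = 0.000309). VSR1 (AT3G52850), a receptor that sorts proteins to the vacuole, had 2629, 3074 and 3022 in the controls and 7903, 7619 and 6943 with La (1.37 ± 0.12, adjusted p = 0.000404). ORG1 (AT5G53450) rose by 1.18 ± 0.10 and AT1G60420, annotated with a DC1 domain, by 1.32 ± 0.11 (adjusted p = 0.000309 for each). All of these kept the direction of every La library above every control.

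NAP, VSR1, ORG1 and AT1G60420 are shown with the 250 bases upstream of their annotated start because they were the genes with the smallest adjusted p that at least doubled, held the motif and had a window free of other annotated genes. Capitals mark CACGTG, the G-box, in the first pair and AAATATCT, a short form of the evening element of clock-controlled genes, or its reverse complement, in the second pair. The sequences were read 5′ to 3′ along the gene from the RefSeq TAIR10.1 genome. Their positions are chr1:26121830-26122079, plus strand for NAP, chr3:19587506-19587755, plus strand for VSR1, chr5:21688513-21688762, plus strand for ORG1 and chr1:22261504-22261753, plus strand for AT1G60420.
NAP: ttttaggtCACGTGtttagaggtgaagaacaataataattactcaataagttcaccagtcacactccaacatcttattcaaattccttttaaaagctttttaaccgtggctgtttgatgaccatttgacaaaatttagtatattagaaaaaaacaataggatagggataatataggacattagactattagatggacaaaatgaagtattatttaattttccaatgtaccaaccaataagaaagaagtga
VSR1: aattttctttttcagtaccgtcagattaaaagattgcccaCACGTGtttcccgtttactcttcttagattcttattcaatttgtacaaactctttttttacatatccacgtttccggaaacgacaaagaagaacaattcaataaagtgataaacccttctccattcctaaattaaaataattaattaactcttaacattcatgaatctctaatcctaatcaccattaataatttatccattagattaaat
ORG1: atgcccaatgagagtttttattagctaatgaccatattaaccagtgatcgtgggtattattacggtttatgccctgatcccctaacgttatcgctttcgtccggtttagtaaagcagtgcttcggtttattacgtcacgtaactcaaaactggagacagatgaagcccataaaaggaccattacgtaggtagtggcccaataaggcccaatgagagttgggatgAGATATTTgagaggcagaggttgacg
AT1G60420: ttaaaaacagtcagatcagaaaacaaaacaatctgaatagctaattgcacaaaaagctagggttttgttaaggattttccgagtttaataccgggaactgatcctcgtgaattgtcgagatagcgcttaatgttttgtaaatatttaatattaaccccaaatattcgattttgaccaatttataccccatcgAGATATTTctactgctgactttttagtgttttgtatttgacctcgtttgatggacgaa
CACGTG, searched on both strands, was in 8.74% of the 2139 windows of genes that rose, in 6.31% of the 2155 read for genes that fell and in 7.02% of all 22611 windows. Among the 725 genes that at least doubled it was in 10.2%. AAATATCT was in 6.36% of windows of genes that rose, 5.43% of those that fell and 4.79% of all, and in 8.55% of genes that at least doubled. ACGTGNC, which overlaps CACGTG in some windows, was in 11.4%, 8.4% and 9.23% of genes that rose, that fell and of all. The W-box forms TTGACC or TTGACT, bound by WRKY factors, were in 32.2%, 31.2% and 28.7%. GNATATNC was in 5.75%, 4.83% and 5.54%, and GCCGCC in 1.78%, 1.25% and 1.94%. The median GC content was 30.4% in windows of genes that rose and of genes that fell, and 31.2% in all. These are descriptions of letters and not of bound sites.

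The largest rises included XTH11 (AT3G48580), a xyloglucan endotransglucosylase/hydrolase that cuts and rejoins wall polymers, which was at 0 in all 3 controls and at 96.0, 191.3 and 104.6 with La. This was at least 41.7-fold higher against a floor of 3 reads per library (adjusted p = 0.000643). XTH11 had 26.7, 25.8 and 2.05 in Yb 1 to 3, and the La level was above that of Yb roots by 3.35 ± 0.81 (adjusted p = 0.042). CEP1 (AT5G50260), a cysteine protease of programmed cell death, had 25.5, 66.7 and 18.5 in the controls and 817.5, 2287 and 1158 with La (5.33 ± 0.83, adjusted p = 0.00573). PYD4 (AT3G08860) had 41.0, 27.9 and 34.9 in the controls and 988.4, 1538 and 948.4 with La (5.03 ± 0.49, adjusted p = 0.00121). The La 2 library held the highest value of all 3 genes, and no control came near any La library. MYB62 (AT1G68320), a transcription factor known from phosphate starvation, was at 0 in the controls and at 19.0, 39.3 and 11.5 with La, at least 7.43-fold higher. EXO70H4 (AT3G09520), a subunit of the exocyst that tethers secretory vesicles, was at 0 in the controls and at 15.8, 18.4 and 10.6 with La, at least 4.76-fold higher.

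The fall with the smallest adjusted p was that of NSP4 (AT3G16410), a nitrile specifier protein that directs the breakdown of glucosinolates to nitriles. It had 477.0, 483.0 and 492.3 in the controls and 176.2, 157.3 and 199.7 with La, a log2 difference of -1.45 ± 0.10 (adjusted p = 0.000237). Its controls lay within a narrow band and every La library lay below it.

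BGLU21 (AT1G66270), a root beta-glucosidase that cleaves the coumarin glucoside scopolin, had 9841, 7627 and 10182 in the controls and 2207, 1988 and 1803 with La (-2.20 ± 0.17, adjusted p = 0.000309). Its close relative BGLU22 (AT1G66280) fell by 1.05 ± 0.19 on the log2 scale (adjusted p = 0.0059), and reads of these related copies can have been counted for each other. GSTU26 (AT1G17190), a glutathione transferase of the tau class, had 1156, 1254 and 979.4 in the controls and 185.7, 180.8 and 180.5 with La (-2.62 ± 0.19, adjusted p = 0.000309). The La values of GSTU26 varied far less than its control values. NSP4, BGLU21 and GSTU26 were also lower with La than with Yb, by -1.11 ± 0.10, -1.93 ± 0.17 and -1.77 ± 0.19 (adjusted p = 0.00224, 0.00224 and 0.00595).

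Genes at 0 in all 3 La libraries included ACS5 (AT5G65800), an enzyme of ethylene synthesis, with 29.95, 24.9 and 58.6 in the controls, at least 13.1-fold lower with La (adjusted p = 0.000659). AT1G51810, a leucine-rich repeat protein kinase gene, had 39.9, 55.8 and 36.0 in the controls and was at least 15.2-fold lower, a call lost with edgeR (adjusted p = 0.136). AT4G01890, annotated as a pectin lyase-like protein, was at least 9.23-fold lower. Lower by -6.71 ± 1.04 was AT3G18450, of the PLAC8 family, with 469.2, 343.6 and 406.0 in the controls and 16.9, 0.87 and 1.92 with La (adjusted p = 0.0054).

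**Figure D2:**
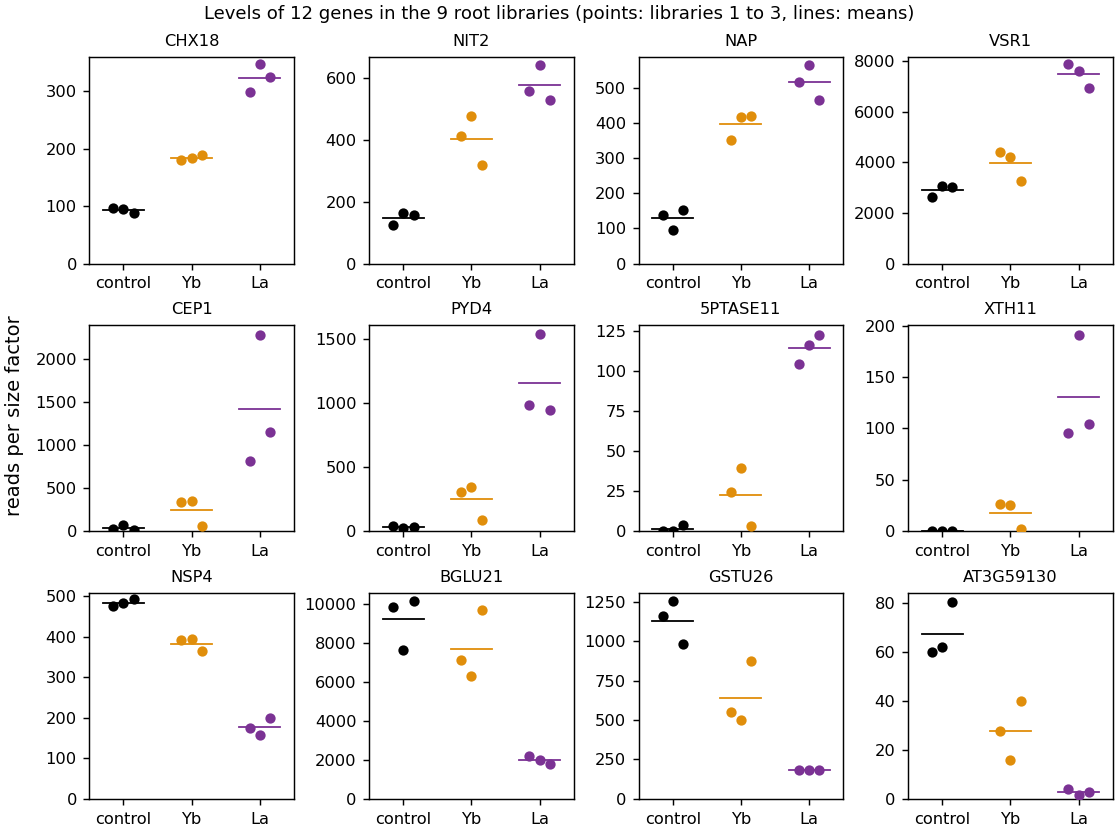
Reads per size factor of 12 genes in the control, Yb and La libraries of the roots, with each point a library and each line a group mean on a linear axis from 0. The 8 genes of the upper part have all La points above all control points, and the 4 of the lowest row have them below.

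Root hair genes fell most among the groups described. Of 18 genes named root hair specific (RHS), which are known from expression in hair cells, 15 fell and 3 did not pass, with a median log2 difference of -3.68, beside 9.51% of all genes falling. Their summed level was 4679 to 6492 in the controls and 798.5, 605.4 and 1071 in La 1 to 3. In these whole roots, fewer cells of a type and less RNA per cell cannot be told apart. RHS17 (AT4G38390) had 184.1, 206.2 and 189.1 in the controls and 27.4, 39.3 and 48.0 with La (-2.36 ± 0.31, adjusted p = 0.00166). RHS18 (AT5G22410), a peroxidase, had 119.8, 98.6 and 123.3 in the controls and 5.27, 2.62 and 17.3 with La (-4.06 ± 0.58, adjusted p = 0.0027). GRF11, PRP1 and RSH2 were the members not past the test, with log2 differences of 0.08, -1.51 and -0.73.

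Markers of other root tissues did not show falls of that size. Their counts stand beside 9.41% of all genes rising and 9.51% falling. The 15 genes of xylem and secondary walls included none past the test, although all 15 had negative log2 differences, from -0.90 to -0.02 with a median of -0.37, and their sum was 6772 to 9814 in the controls and 5554 to 7421 with La. None of the 6 primary wall cellulose synthases passed (median 0.05). Of 13 genes of the meristem and stem cell niche, 2 fell (15.4%), MGP (-0.44 ± 0.12) and RGF3 (-1.09 ± 0.28), and 11 did not pass. Neither call held with the replicate block or without control 3, La 2 or La 3. Of 6 root cap genes, SMB fell by 0.67 ± 0.18 on the log2 scale, and 3 genes of the list fell without La 1. The call of SMB was lost with quantile normalization, with the 6 compared libraries alone and without control 2, control 3, La 2 or La 3. Of 14 phloem genes 3 rose, PP2-A1, SUC2 and SMXL5, and SWEET12, a sugar exporter, fell by 2.22 ± 0.44; the rises were 1 without control 3 or La 2. Of 12 genes of lateral root initiation 3 rose, SHY2 fell by 0.68 ± 0.16 on the log2 scale and 8 did not pass, with 1 rise without control 1, control 3, La 2 or La 3 and no fall without control 3. LRP1 (AT5G12330), a gene of lateral root primordia, had 208.5, 199.2 and 204.5 in the controls and 523.2, 503.2 and 457.9 with La, a rise of 1.27 ± 0.18 (adjusted p = 0.00201). The 13 markers of green tissue included none past the test, with sums of 326.7 to 739.8 in the controls and 564.4 to 818.8 with La.

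Genes of the cell wall split by family, and are given beside the shares over all genes of 9.41% rising and 9.51% falling. Of 29 XTH genes 14 fell, 2 rose and 13 did not pass, with a median of -0.37. The 2 that rose were XTH11 and XTH24 (AT4G30270), which had 400.4, 355.5 and 407.0 in the controls and 1478, 1911 and 1840 with La (2.16 ± 0.26, adjusted p = 0.00178). XTH20 (AT5G48070) had 1177, 1213 and 1079 in the controls and 573.9, 649.1 and 737.2 with La (-0.83 ± 0.10, adjusted p = 0.00104). Members of this enzyme family thus moved in opposite directions with groups that did not overlap. Of 9 extensins and LRX proteins, structural glycoproteins of the wall, 6 fell and EXT4 rose (1.27 ± 0.31); the falls were 2 without control 1 or control 2, and 1 with the 6 compared libraries alone. The call of EXT4 was lost with those 6 libraries and without control 1, control 3, La 2 or La 3. LRX1 (AT1G12040), which acts in hair walls, fell by 3.32 ± 0.65 on the log2 scale (adjusted p = 0.0133).

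Of 44 arabinogalactan and fasciclin-like proteins, glycoproteins of the cell surface, 18 fell, 4 rose and 22 did not pass, with a median of -0.38. AGP30 (AT2G33790) had 1552, 1953 and 1543 in the controls and 263.7, 219.3 and 324.5 with La (-2.65 ± 0.26, adjusted p = 0.000861). The falls of this list were 9 without La 2, and 11 without control 1 or La 3, and the rises were 2 without La 2. Of 58 class III peroxidases, which cross-link or loosen walls, 17 fell and 13 rose. The peroxidase gene AT4G36430 had 1863, 2218 and 1758 in the controls and 4684, 4414 and 4513 with La (1.23 ± 0.11, adjusted p = 0.000433). The falls were 5 without control 1, 7 without La 2, 9 without La 3 and 10 without control 2 or control 3, and the rises were 8 without La 2. Of 16 laccases, copper enzymes that oxidise monolignols, 4 rose (25.0%) and 2 fell (12.5%). Of these falls 1 was called with the replicate block or without control 1, control 2 or La 1, and none without control 3. LAC5 (AT2G40370) had 308.4, 312.7 and 297.0 in the controls and 753.2, 736.5 and 773.7 with La (2.46-fold, SE 0.13 on the log2 scale, adjusted p = 0.000467), with LAC7 (1.20 ± 0.13) and LAC12 (1.36 ± 0.18) also higher. Of 27 expansins, which loosen walls, 5 rose (18.5%) and 6 fell (22.2%). Of 65 pectin methylesterases and their inhibitors 7 rose (10.8%) and 10 fell (15.4%), not far from the 9.41% and 9.51% of all genes. The falls of that list were 5 without control 1 or control 3 and 6 without La 3.

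**Figure D3:**
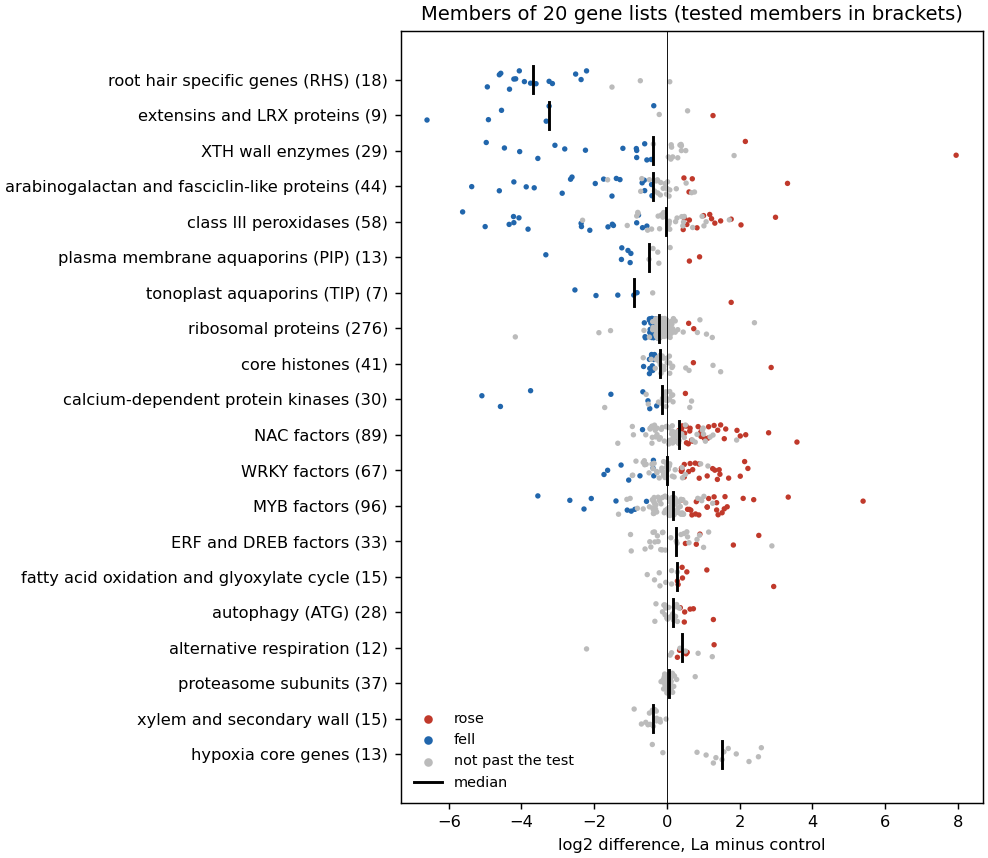
Log2 differences (La minus control) of the tested members of 20 gene lists, with the number tested in brackets. Red points rose, blue points fell, grey points did not pass the test and black bars are medians, from -3.68 in the root hair genes to 1.52 in the hypoxia genes, none of which passed.

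Aquaporins fell in both membranes. Of 13 aquaporins of the plasma membrane (PIP), 6 fell (46.2%), 2 rose (15.4%) and 5 did not pass, beside 9.51% of all genes falling and 9.41% rising. Their summed level was 101000, 91240 and 87260 in the controls and 62040, 56220 and 55810 with La. PIP1A (AT3G61430) had 20922, 21313 and 18978 in the controls and 10718, 9071 and 10644 with La (-1.01 ± 0.14, adjusted p = 0.00178). PIP2B (AT2G37170) fell by 1.07 ± 0.16 and RD28 (AT2G37180), which lies next to it and resembles it, by 1.25 ± 0.18 on the log2 scale. Reads of these related neighbours can have been counted for each other. The 2 that rose were PIP2;5 (0.90) and PIP1;4 (0.62), of which 1 was called without control 2, control 3 or La 1 and none without La 2.

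Of 7 tonoplast aquaporins (TIP), 5 fell (71.4%) and TIP1;3 rose (14.3%), beside 9.51% of all genes falling and 9.41% rising. The sums of the list were 53490 to 76060 in the controls and 35240 to 39550 with La. The call of TIP1;3 was lost without control 2, control 3, La 2 or La 3. DELTA-TIP (AT3G16240) had 3433, 2728 and 2369 in the controls and 637.2, 711.1 and 839.9 with La (-1.95 ± 0.28, adjusted p = 0.00308). TIP4;1 (AT2G25810) had 643.3, 555.7 and 516.9 in the controls and 160.3, 54.2 and 109.4 with La (-2.53 ± 0.39, adjusted p = 0.00448). The sums of both kinds of aquaporin were lower in every La library than in every control. Among 8 NIP aquaporins, 2 fell (25.0%) and 1 rose (12.5%), the rise being near the share over all genes. NLM1 (AT4G19030) had 312.8, 591.6 and 441.9 in the controls and 126.6, 78.6 and 63.4 with La (-2.33 ± 0.43, adjusted p = 0.00916).

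Ribosomal proteins fell by small amounts. Of 276 tested, 72 fell (26.1%), 2 rose (0.725%) and 202 did not pass, beside 9.51% of all genes falling and 9.41% rising. The summed level was 680900 to 730100 in the controls and 578400 to 626000 with La. The 72 falls lay between -0.62 and -0.25 on the log2 scale, and the median of all 276 was -0.21. AT5G22440, of the L1p/L10e family, had 3704, 3183 and 3208 in the controls and 2553, 2348 and 2357 with La (-0.47 ± 0.09, adjusted p = 0.00546). The number of falls was 23 without La 3, 27 without control 1, 28 without control 2, 33 without La 2 and 42 with the replicate number as a block. AT3G14595 was among the 2 that rose (0.60 ± 0.12). Of 41 core histones, 12 fell (29.3%) and 2 rose (4.88%). AT1G75600, a histone that rose, went from 11.1, 5.98 and 6.17 in the controls to 48.5, 72.5 and 53.8 with La (2.87 ± 0.36, adjusted p = 0.00124). None of 37 proteasome subunits passed the test, and their median was 0.05.

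The upstream windows of 3 ribosomal protein genes that fell are shown because they hold AAACCCTA, the telo-box common in such promoters. They had the smallest adjusted p among those whose window overlapped no annotated gene. Capitals mark that motif or its reverse complement, in TAIR10.1 at chr3:3480770-3481019, plus strand for AT3G11120 (L41 family), chr4:347294-347543, minus strand for AT4G00810 (acidic 60S protein) and chr5:24381600-24381849, minus strand for AT5G60670 (L11 family).
AT3G11120: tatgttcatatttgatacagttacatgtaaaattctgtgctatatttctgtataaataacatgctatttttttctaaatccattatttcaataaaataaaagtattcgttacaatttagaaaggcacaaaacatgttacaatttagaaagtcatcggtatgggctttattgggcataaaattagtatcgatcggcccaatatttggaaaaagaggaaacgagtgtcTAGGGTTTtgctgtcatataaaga
AT4G00810: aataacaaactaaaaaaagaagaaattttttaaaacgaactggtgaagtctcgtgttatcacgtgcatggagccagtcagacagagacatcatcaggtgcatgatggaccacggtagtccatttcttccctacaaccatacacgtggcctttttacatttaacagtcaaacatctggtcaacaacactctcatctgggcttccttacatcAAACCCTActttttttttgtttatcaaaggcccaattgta
AT5G60670: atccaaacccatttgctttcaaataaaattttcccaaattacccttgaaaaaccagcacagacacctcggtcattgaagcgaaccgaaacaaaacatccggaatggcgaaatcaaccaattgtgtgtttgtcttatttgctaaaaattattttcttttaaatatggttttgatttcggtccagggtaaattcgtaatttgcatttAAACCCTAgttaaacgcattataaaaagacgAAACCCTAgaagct
The motif lay 16, 32 and 6 bases from the annotated start, counting from its nearer copy. AT3G11120 went from a mean of 2283 ± 41.0 to 1783 ± 48.7 (SD, n = 3 each), AT4G00810 from 1795 ± 110 to 1355 ± 101, and AT5G60670 from 1640 ± 93.1 to 1251 ± 85.7. AAACCCTA was in 14.9% of the 276 windows of ribosomal protein genes, against 3.58% of all windows. It was in 20.8% of the 72 that fell and 12.9% of the 202 that did not pass. Among all genes the shares were 2.34% of those that rose and 3.11% of those that fell.

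Among the transcription factor families below, rises outnumbered falls. Of 89 NAC factors 32 rose (36.0%), beside 9.41% of all genes, and SMB, the regulator of the root cap, was the 1 that fell. NAC6 (AT5G39610), a senescence regulator, had 115.4, 147.4 and 174.7 in the controls and 923.0, 1067 and 1020 with La (2.80 ± 0.21, adjusted p = 0.000309). It was higher with La than with Yb by 1.37 ± 0.21 (adjusted p = 0.0123). The rises were 21 without La 2, and the summed level of the family was 23350 to 25400 in the controls and 35060 to 38830 with La.

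Of 67 WRKY factors 22 rose (32.8%) and 8 fell (11.9%), beside 9.41% of all genes rising and 9.51% falling. The falls were 5 without La 1, and 13 with Yb 3 left out of the fit. WRKY45 (AT3G01970), which activates phosphate uptake, had 65.4, 49.8 and 49.3 in the controls and 308.0, 241.1 and 188.2 with La (2.14 ± 0.20, adjusted p = 0.000433). WRKY28 (AT4G18170) had 34.4, 60.8 and 70.9 in the controls and 286.9, 227.2 and 241.9 with La (2.23 ± 0.26, adjusted p = 0.000933). The median WRKY factor had a log2 difference of 0.00, against 0.33 for the NAC factors. Of 96 MYB factors 23 rose and 9 fell, with MYB112 (AT1G48000) at 8.87, 13.0 and 17.5 in the controls and 107.6, 193.1 and 112.3 with La (3.34 ± 0.33, adjusted p = 0.000489). Of 33 ERF and DREB factors 5 rose (15.2%) and none fell, led by DREB2C (AT2G40340) with 2.53 ± 0.40 (adjusted p = 0.00392). These rises were 1 without control 3 or La 2, 2 without La 1 or La 3, and 3 without control 1 or control 2.

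Genes of calcium signalling are given beside the shares over all genes of 9.41% rising and 9.51% falling. Of 30 calcium-dependent protein kinases 8 fell (26.7%) and 1 rose. CPK25 (AT2G35890) had 82.1, 62.7 and 67.8 in the controls and 5.27, 2.62 and 7.68 with La (-3.75 ± 0.40, adjusted p = 0.000659), and CPK16 (AT2G17890) had 18.9, 9.96 and 25.7 against 1.05, 0 and 0 (-4.58 ± 0.71, adjusted p = 0.00282). CPK25 was lower with La than with Yb by -2.75 ± 0.40 (adjusted p = 0.0103). The falls of these kinases were 4 without control 1, control 2 or La 2, and 5 without control 3 or La 3. CDPK9 (AT5G23580) rose by 0.51 ± 0.09.

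Among 22 calcium pumps and exchangers 5 rose (22.7%) and 2 fell (9.09%), and the rises were 2 without control 3 or La 2 and 3 without control 1 or La 3. ACA9 (AT3G21180), a calcium pump known from pollen, had 367.2, 320.7 and 292.9 in the controls and 37.98, 5.24 and 21.1 with La (-4.28 ± 0.70, adjusted p = 0.00619), whereas ACA10 (AT4G29900) rose by 0.55 ± 0.09 (adjusted p = 0.00314). CNGC14 (AT2G24610), a calcium channel of root hairs and root gravitropism, had 467.0, 464.1 and 473.8 in the controls and 209.9, 131.9 and 184.3 with La (-1.44 ± 0.22, adjusted p = 0.00296). It was lower with La than with Yb by -1.39 ± 0.22 (adjusted p = 0.0137). GLR2.5 (AT5G11210), a glutamate receptor channel, rose from 41.0, 50.8 and 33.9 to 251.1, 370.4 and 193.0 (2.65 ± 0.29, adjusted p = 0.000844). Of 38 channels of these 2 families 4 rose (10.5%) and 5 fell (13.2%), near the shares over all genes, with 3 falls without control 2. Of 21 calmodulins and related sensors 2 rose (9.52%) and 5 fell (23.8%), with 3 falls without control 1, control 2, La 2 or La 3 and with the replicate number as a block. CML11 (AT3G22930) rose by 1.26 ± 0.11 (adjusted p = 0.000309) and CML39 (AT1G76640) fell by 2.88 ± 0.41 on the log2 scale (adjusted p = 0.00204).

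Autophagy genes, which deliver cell contents to the vacuole, rose in 6 of 28 cases (21.4%) and fell in none. Over all genes 9.41% rose and 9.51% fell. ATG8D (AT2G05630), a ubiquitin-like protein of the autophagosome membrane, had 600.1, 722.0 and 593.0 in the controls and 1358, 1643 and 1650 with La (1.28 ± 0.16, adjusted p = 0.00139). ATG8B (AT4G04620) rose by 0.73 ± 0.10 and ATG8G (AT3G60640) by 0.64 ± 0.10. The ATG8 genes above were also higher with La than with Yb, by 1.02 ± 0.16, 0.59 ± 0.10 and 0.56 ± 0.10 (adjusted p = 0.0131, 0.0137 and 0.016). Of 15 genes of fatty acid oxidation and the glyoxylate cycle 7 rose and none fell, and the rises were 3 without control 3 and 4 without La 2. LACS7 (AT5G27600), which activates fatty acids in peroxisomes, had 371.6, 299.8 and 333.0 in the controls and 773.2, 758.3 and 625.9 with La (2.15-fold, SE 0.13 on the log2 scale, adjusted p = 0.00104).

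Of 12 genes of alternative respiration 5 rose, and these were 1 without control 3 or La 2, 2 without control 2 or La 1, and 3 without control 1 or with the 6 compared libraries alone. NAC13 (AT1G32870), a regulator of that pathway, had 190.8, 233.0 and 184.0 in the controls and 567.5, 500.6 and 432.0 with La (2.46-fold, SE 0.24 on the log2 scale, adjusted p = 0.00659). The 13 core genes of low oxygen included none past the limma test with all 9 libraries, although their median log2 difference was 1.52. In limma 1 passed with the replicate block or without La 2 and 2 without control 2, and 5 passed with DESeq2. Their summed level was 56550 in La 1, 8650 in La 2 and 16540 in La 3, and 5848 to 9395 in the controls. La 2 lay within the range of the controls, and their level in La 1 moved apart from its fellow replicates; the part of this in other results was not tested.

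**Figure D4:**
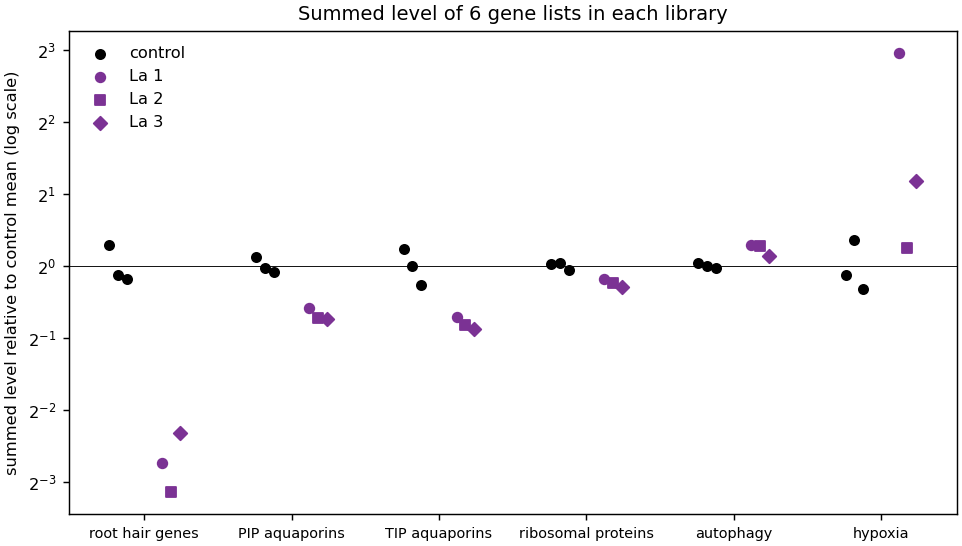
Summed level of 6 gene lists in each library relative to the control mean, on a log axis, with black points for controls and purple points for La 1, La 2 and La 3. Root hair genes and aquaporins lie below the controls in all 3 La libraries, and the hypoxia genes are highest in La 1 (56550 against 5848 to 9395 in the controls).

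Hormone genes are given beside the same shares over all genes, 9.41% rising and 9.51% falling. Of 10 type-A response regulators, which respond to cytokinin, 2 fell (5 without control 1 or with DESeq2) and none rose. RR3 (AT2G41310) had 986.1, 1207 and 1121 in the controls and 461.0, 331.1 and 562.5 with La (-1.32 ± 0.17, adjusted p = 0.0016). Of 28 Aux/IAA repressors of auxin responses 7 rose (25.0%) and 4 fell (14.3%). AXR3 (AT1G04250) had 1369, 1593 and 1466 in the controls and 677.2, 468.3 and 537.6 with La (-1.41 ± 0.17, adjusted p = 0.00127), and the rises were 2 without control 3, 3 without La 2 or La 3 and 4 with quantile normalization or the block. Of 14 brassinosteroid genes 5 fell (35.7%) and 1 rose, with 1 fall without control 2, La 2 or La 3, 2 without control 3 and 3 without control 1. The 1 rise was lost with the replicate block, without each of the controls and without La 1 or La 3. Of 21 jasmonate genes 2 rose (9.52%) and 1 fell (4.76%), near or below the shares over all genes. There were 4 rises without La 1 and 5 with library weights. The falls were 4 without control 2 but none without control 3, La 1 or La 2. JAZ7 (AT2G34600), a repressor of jasmonate responses, rose by 1.65 ± 0.26 (adjusted p = 0.00285). Of 16 nitrate genes 5 fell (31.2%), and these were 3 without control 2, La 1 or La 3 and with the 6 compared libraries alone. HRS1 (AT1G13300), a repressor that links nitrate and phosphate, had 2816, 3253 and 2733 in the controls and 1620, 1566 and 1678 with La (-0.85 ± 0.10, adjusted p = 0.000838). HRS1 had a log2 difference of -0.01 ± 0.10 between La and Yb.

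Families were also formed from genes with the same annotated product, with 15 or more tested members; the 4 with the highest share of falls and the 4 with the highest share of rises were chosen after their values were seen, and no test is attached. They were picked from 138 families, and their counts stand beside 9.41% of all genes rising and 9.51% falling. Proteins with a cysteine/histidine-rich C1 domain fell in 58 of 127 cases (45.7%) and rose in 2, with a median of -0.76. AT3G59130 had 59.9, 61.8 and 80.2 in the controls and 4.22, 1.75 and 2.88 with La (-4.35 ± 0.40, adjusted p = 0.000433), and AT5G02350 went from a mean of 528.9 ± 41.3 to 91.8 ± 29.3 (SD, n = 3 each). The family's median relative to the controls was -0.57, -0.91 and -0.74 in La 1, La 2 and La 3, and its falls were 36 without La 2. Proteins of the CAP family, secreted and related to pathogenesis-related protein 1, fell in 9 of 16 cases, and in 5 without La 2, while 1 rose. Proline-rich extensin-like proteins fell in 12 of 15 cases, and in 4 without control 1. Terpenoid cyclases fell in 7 of 15 cases, and in 3 without control 3, while 2 rose.

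Among the families with the most rises, ABC-2 type transporters rose in 8 of 17 cases (47.1%) and fell in none. The counts of these families also stand beside 9.41% of all genes rising and 9.51% falling. ABCG23 (AT5G19410) went from a mean of 179.6 ± 12.7 to 376.4 ± 13.9, a rise of 1.07 ± 0.14 (adjusted p = 0.00128), and ABCG2 (AT2G37360) from 302.0 ± 42.5 to 608.1 ± 58.5 (1.01 ± 0.14, adjusted p = 0.00174). These are half-size transporters, of which some export wall lipids. Their summed level was 2330 to 2571 in the controls and 4343 to 4586 with La, and the rises were 7 without La 1. Proteins with a VQ motif, many of which bind WRKY factors, rose in 9 of 26 cases and in 4 without La 3, while AT3G58000 fell (-6.28 ± 0.90). Cysteine proteinases rose in 7 of 25 cases and in 3 without La 2, while AT3G43960 (-2.97 ± 0.42) and AT2G34080 (-2.21 ± 0.36) fell. Proteins annotated as cotton fiber protein rose in 5 of 17 cases and 1 fell. AT2G34610, of that last family, went from 56.3 ± 6.95 to 237.2 ± 46.8 (2.05 ± 0.17, adjusted p = 0.000309).

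Some genes that changed lay next to each other. Of 18606 pairs of neighbouring tested genes, 486 (2.61%) were called in the same direction. Over all genes 9.41% rose and 9.51% fell, and whether the pairs exceed what these shares alone would give was not tested. There were 11 runs of 4 or more neighbours called the same way, 3 of rises and 8 of falls. Chromosome 1 held a run of 7 falls from AT1G33870 to AT1G33930, annotated as AIG1 family proteins (AT1G33880 and AT1G33890), other P-loop nucleoside triphosphate hydrolases and the phloem protein PP2-A4, at chr1:12301325-12327311 in TAIR10.1. AT1G33870 had 224.1, 271.9 and 245.6 in the controls and 52.7, 41.9 and 52.8 with La (-2.32 ± 0.25, adjusted p = 0.000659). The log2 differences of the run lay between -4.37 and -0.90. Its length depended on the fit: the call of AT1G33930 was lost with the replicate block, with edgeR and without each of the controls in turn, La 2 or La 3, that of PP2-A4 without control 2, control 3, La 1 or La 2, and that of AT1G33900 without La 2.

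The other run of 7 falls, on chromosome 5, held genes of mixed annotation, among them neighbouring alpha tubulins. It held RAP2.11 (AT5G19790), a regulator of the response to low potassium, with 179.7, 112.5 and 125.4 in the controls and 7.38, 4.37 and 11.5 with La (-4.15 ± 0.68, adjusted p = 0.00466). It also held the tubulins TUA3 and TUA5, which fell by 0.51 ± 0.12 and 0.40 ± 0.08 on the log2 scale and are close copies whose reads can be split. The call of TUA3 was lost without control 1, control 2 or La 3, and that of AT5G19810 without control 1, control 2, La 2 or La 3. AT5G19760, at the end of the run, lost its call with the 6 compared libraries or the replicate block and without each of the controls in turn, La 2 or La 3.

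A run of 5 rises on chromosome 1, at chr1:29467412-29488007, held the tau class glutathione transferases GSTU19 to GSTU23. GSTU22 (AT1G78340) had 553.5, 919.2 and 569.4 in the controls and 3921, 4512 and 4171 with La (2.66 ± 0.46, adjusted p = 0.00828), while GSTU23 rose by 0.63 ± 0.14 and GSTU19 by 0.62 ± 0.10. The run was broken when any 1 of the 6 compared libraries was left out, since the call of GSTU21 was lost with the 6 compared libraries, library weights or the replicate block and without each of the controls in turn, La 1 or La 2, and that of GSTU20 without control 2, control 3, La 2 or La 3. Another run of 5 rises on chromosome 1 held AT1G51000, AT1G51010, AT1G51020, AT1G51030 and AT1G51035, which the annotation leaves uncharacterized. This run was also broken in some fits. The call of AT1G51000 was lost without control 1, control 2 or La 2, and that of AT1G51030 without control 3 or La 2. AT1G51010 had 5.55, 0 and 2.06 in the controls and 79.1, 57.7 and 45.1 with La (4.91 ± 1.05, adjusted p = 0.0133). On chromosome 4, the run from AT4G19750 to AT4G19800 held glycosyl hydrolases with a chitinase insertion domain, with log2 differences of -6.73 to -4.16. AT4G19800 had 238.5, 43.8 and 73.0 in the controls and 2.11, 0 and 0 with La, and its call was lost without La 2 or La 3 and with edgeR.

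**Figure D5:**
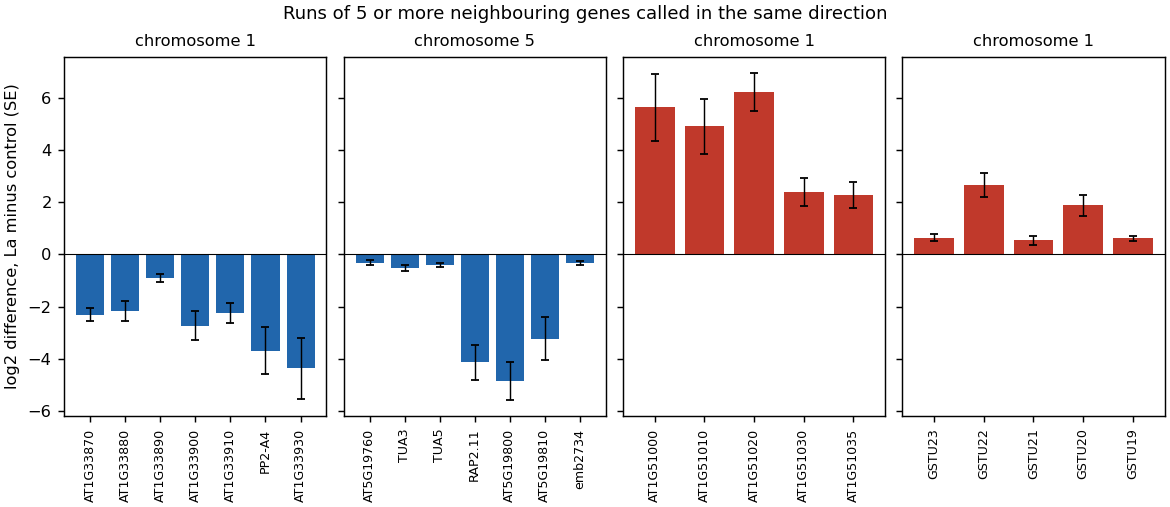
Log2 difference (La minus control) with its SE for the genes of the 4 runs of 5 or more neighbours called in the same direction, in chromosome order. The runs of 7 falls reach -4.37 and -4.85, and the runs of 5 rises reach 6.22 and 2.66.

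Where the elements were compared at the same dose and time, 1466 genes (6.45%) differed between La and Yb roots, 600 higher and 866 lower with La. This number moved with single libraries, among them Yb 3, which lay beside the controls on the first component. Without Yb 3, 594 genes differed, and 250 without La 3, 336 without La 2 and 542 without Yb 1. With the 6 libraries of La and Yb alone 508 differed. Which of the La against Yb calls named above are among those lost was not checked.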

How the data were processed

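RNA was sequenced from roots as stranded paired-end libraries, per the labels. Per the submitters' processing notes, the tools, in no stated order, were Trimmomatic (0.36.1), TopHat2 (2.1.1) and HTSeq (0.6.1p1), on TAIR10. The strand setting used for counting is not given there. The values the authors deposited are a signal per gene, namely read counts divided by 1 size factor per library (0.90155 to 1.1446), although the table is named for a unit that divides by gene length. In each library 100% of values were whole multiples of 1 step within 0.001. For control 2 and Yb 2 that step lies near 1 (size factors 1.0041 and 1.0073). Count tests on the recovered reads serve as alternatives only.

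Genes with a value of at least 1 in 3 of 9 root libraries were tested as log2(value + 0.5) with limma 3.58.1 in R 4.3.3, with group as the single factor over all 9 libraries, a trend and robust moderation. P-values (two-sided) were corrected with Benjamini-Hochberg over 22729 genes, with a threshold of 0.05. Errors of log2 differences are SE, those of means SD (n = 3). Independent counts were simulated for 22729 genes, with 100 changed 2-fold and 100 changed 4-fold, all at a control mean of at least 10. Of these, 66% of the 2-fold and 89% of the 4-fold changes were recovered, with 8 false calls. The simulation held no outlying library and far fewer changed genes than were called here, so its rates need not hold for these data. Lists are described by counts and medians with no set test. DESeq2 1.42.0 and edgeR 4.0.16 were alternatives. Numbers of same-numbered La and control libraries did not pair (correlations of deviations -0.07, -0.125 and 0.003).

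Named genes were, per direction and among called genes with groups that do not overlap, the 8 with the smallest adjusted p (mean of at least 10 in the higher group) and the 8 largest changes (mean of at least 100). Added to these were the 3 members per list with the smallest adjusted p and a single called member against the rest, the 6 highest genes at 0 in 1 group, and members of the 3 longest runs per direction. BGLU22, VSR1, ORG1, SMXL5, PIP2;5 and PIP1;4 lie outside that rule, as do the list members named as not past the test and the product families. The ribosomal protein genes with printed upstream windows also lie outside it. All of these were chosen after their values were seen, as were the windows printed for NAP and AT1G60420. The members and lists were chosen with earlier results of these data known. Names, neighbours and the 250 upstream bases came from RefSeq TAIR10.1, with 28781 of 28991 genes matched by locus. Shoot libraries were not used here. Replicates differed by more than counting error, so floors of 3 reads per library cover counting error only.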

Additional observations from a re-analysis of the deposited data

How the results depend on the processing

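No gene called for La against control reversed its direction under any alternative run. In the 4278 of 4300 called genes with groups that do not overlap, leaving out 1 library could not have reversed it. Of 210 named and called genes, 157 kept their call under all alternatives. The 4300 calls were 4319 and 4256 with pseudocounts of 1 and 0.1, 4235 with no filter, 4295 with a filter of 10, 4338 with TMM, 4417 with quantile normalization, 4196 with the 6 compared libraries, 5178 with library weights, 4785 with Yb 3 left out of the fit, 4766 with DESeq2 and 4223 with edgeR. Leaving out 1 library gave 2588 to 3737 calls, 1279 to 1845 up and 1309 to 1892 down, with the lowest of each without La 2. The replicate block gave 3799 calls (1889 up, 1910 down) and 1159 for La against Yb. The 1466 calls of La against Yb were 508 with the 6 libraries of these groups alone and 250 to 1475 when 1 library was left out. The product families were an alternative grouping chosen after seeing the data. Counts of lists also moved by over 1.5 times, mostly when 1 library was left out, as given beside lists in the text. Causes were not tested. Genes of low read number had the widest errors, with a median SE of 0.81 below a mean of 10 and 0.12 between 100 and 1000.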
